A study of Mus musculus with 8 samples.

Results

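Long noncoding RNA (lncRNA) genes are transcribed into long RNAs that are not translated into protein, and their promoters were examined here as 6786 regions of open chromatin annotated to the start of such a gene on an autosome. They were 6786 of the 489637 regions in the deposited table and belonged to 2527 genes. The rule that chose members used annotation alone, although it was set with earlier results of these data known. The table placed each of them at most 1 kb upstream or 100 bp downstream of an annotated start, on chromosomes 1 to 19, with the gene biotype lincRNA (3425 regions), antisense (2894), bidirectional_promoter_lncRNA (330) or sense_intronic (137). The biotype lncRNA, also allowed by the rule, was carried by 0 regions. The assay was ATAC-seq, which uses a transposase to cut and tag open DNA, on nuclei of gastrocnemius, a calf muscle, from 6-month-old mice. Of the 8 libraries, 4 came from mice labelled Vehicle and 4 from mice labelled iMSBmal1KO, which the labels list as treated with tamoxifen. Both groups had the genotype Cre+:iMSBmal1 fl/fl, so the Vehicle mice also carried the Cre transgene and the floxed alleles, and the knockout cannot be told apart from tamoxifen itself. The name iMSBmal1KO stands for an inducible knockout of Bmal1, the clock transcription factor that pairs with CLOCK, in skeletal muscle. The labels do not state the Cre driver, how many animals a library holds or the time of day of collection. Because whole muscle was used, nuclei other than those of fibres were in each library. Fewer open nuclei and a smaller opening per nucleus cannot be told apart in such bulk libraries. The libraries carry replicate numbers but no record of separate animals, so p-values measure the spread between these libraries.

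A lincRNA lies between protein-coding genes, an antisense RNA is read from the opposite strand of another gene, a sense intronic RNA lies inside an intron, and a bidirectional promoter RNA starts next to a coding gene and runs away from it. Some of these RNAs build nuclear bodies or silence neighbouring imprinted genes, others serve as hosts from which small nucleolar RNAs or microRNAs are cut, and for many no function is known. CLOCK and BMAL1 bind E-boxes, of which CACGTG is the canonical form. Many promoters of broadly expressed genes are rich in CpG, while tissue-restricted promoters are often poor in it.

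The promoters printed here differed in CpG content. Promoter windows of 300 bases, running from 250 bases before to 50 bases after the start, were taken from RefSeq on GRCm38.p6. Windows could be matched for 1115 of the 2525 lncRNA gene symbols, and for 600 genes a window overlapped one of the regions. The following 7 are printed 5′ to 3′ with each CG in capitals. Gm20753 (chr1:106171475-106171774) and Snhg10 (chr12:105032230-105032529) had among the highest levels. 9330104G04Rik (chr7:16874837-16875136) is the most accessible promoter with CACGTG in its window, and there the whole motif is in capitals. Malat1 (chr19:5802623-5802922) is a nuclear RNA and Myhas (chr11:67237232-67237531) the antisense RNA of the fast myosin genes. Gm16897 (chr1:194976910-194977209) is the gene with a region that fell farther upstream, outside the printed window, and Gm15564 (chr16:35981800-35982099) had the smallest unadjusted p among regions with a higher estimate. Gm5420, the other lncRNA gene with a region that fell, has no window among them. All 7 lie on the minus strand.
Gm20753: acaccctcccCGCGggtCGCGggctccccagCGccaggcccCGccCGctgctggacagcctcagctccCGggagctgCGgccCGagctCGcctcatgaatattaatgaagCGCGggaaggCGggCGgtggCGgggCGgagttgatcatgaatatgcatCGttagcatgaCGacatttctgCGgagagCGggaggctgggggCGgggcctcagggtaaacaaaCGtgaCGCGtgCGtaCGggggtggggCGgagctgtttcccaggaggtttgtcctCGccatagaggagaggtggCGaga
Snhg10: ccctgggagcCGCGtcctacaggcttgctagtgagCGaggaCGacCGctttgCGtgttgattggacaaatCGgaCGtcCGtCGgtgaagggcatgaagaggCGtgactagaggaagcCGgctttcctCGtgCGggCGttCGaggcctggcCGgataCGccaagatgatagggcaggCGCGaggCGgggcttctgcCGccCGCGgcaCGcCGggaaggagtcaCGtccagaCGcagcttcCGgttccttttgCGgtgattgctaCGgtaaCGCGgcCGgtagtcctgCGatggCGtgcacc
9330104G04Rik: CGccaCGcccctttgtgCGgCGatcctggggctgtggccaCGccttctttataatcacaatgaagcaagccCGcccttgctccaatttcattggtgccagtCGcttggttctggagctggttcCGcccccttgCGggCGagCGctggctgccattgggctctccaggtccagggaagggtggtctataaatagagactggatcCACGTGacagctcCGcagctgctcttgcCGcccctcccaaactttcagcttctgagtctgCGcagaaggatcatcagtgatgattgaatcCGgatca
Malat1: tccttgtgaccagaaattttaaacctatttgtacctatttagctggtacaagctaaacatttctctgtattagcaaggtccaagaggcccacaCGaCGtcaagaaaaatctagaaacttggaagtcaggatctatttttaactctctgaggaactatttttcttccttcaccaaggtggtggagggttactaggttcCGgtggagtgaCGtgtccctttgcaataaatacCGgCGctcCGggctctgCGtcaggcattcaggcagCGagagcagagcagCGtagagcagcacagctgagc
Myhas: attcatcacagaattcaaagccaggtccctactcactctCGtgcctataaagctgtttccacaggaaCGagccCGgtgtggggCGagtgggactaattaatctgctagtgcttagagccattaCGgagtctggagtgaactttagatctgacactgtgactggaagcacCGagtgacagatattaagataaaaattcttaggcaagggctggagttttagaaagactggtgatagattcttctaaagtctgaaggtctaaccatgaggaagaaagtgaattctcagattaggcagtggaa
Gm16897: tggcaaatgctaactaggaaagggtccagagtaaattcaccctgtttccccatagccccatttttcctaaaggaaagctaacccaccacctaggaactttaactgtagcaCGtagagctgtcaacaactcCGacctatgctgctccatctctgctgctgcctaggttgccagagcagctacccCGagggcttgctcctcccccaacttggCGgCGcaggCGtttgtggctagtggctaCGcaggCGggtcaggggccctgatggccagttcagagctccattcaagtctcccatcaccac
Gm15564: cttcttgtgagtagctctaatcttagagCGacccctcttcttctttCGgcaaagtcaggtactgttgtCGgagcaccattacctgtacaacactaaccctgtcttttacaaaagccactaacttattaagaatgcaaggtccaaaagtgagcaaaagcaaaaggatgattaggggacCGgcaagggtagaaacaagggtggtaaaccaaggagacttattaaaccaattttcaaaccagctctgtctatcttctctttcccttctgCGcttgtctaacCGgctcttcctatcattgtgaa

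CpG counts were 30 for Gm20753, 36 for Snhg10 and 16 for 9330104G04Rik. They were 10 for Malat1, 8 for Gm16897, 6 for Myhas and 6 for Gm15564. The muscle RNA Myhas was thus among the CpG-poorest of the sequences shown although its promoter region, which overlapped the printed window by 32 bases, was strongly open, at 1220 per kb. Over the 676 windows that overlapped one of the lncRNA regions, the median was 8 CpG, against 21 for the 10332 such windows of protein-coding genes.

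The deposited signal is a scaled read count. The scale of each library gave depths of 4.31 to 29.5 M read equivalents (M, units of 1e+06), summed over the regions of the table. Vehicle library 4 was the shallowest and stood apart, with a correlation with every other library of at most 0.85. It had 16.5% of its summed region signal on the mitochondrial chromosome. In it 21.6% of the lncRNA promoter regions were at 0, and the median lncRNA region held 2 reads, against 17 in the deepest library. Muscle fibre markers were open at their starts, with a mean of 954 per kb in Vehicle for the 9 of 10 genes with a start region. The summed start signal of each of 7 lists of other cell types, among them a list of genes unrelated to muscle, overlapped between the groups. The nearest to a shift were Schwann cell markers (4 of 5 genes with a start region), with sums of 206 to 402 in Vehicle and 383 to 505 in iMSBmal1KO, and their part in the results was not tested. Satellite cell markers averaged 86.2 per kb in Vehicle, endothelial markers 43.7 and macrophage markers 26.5, and the start of Adgre1, Cd68 and Mrc1 held no region. The list of genes unrelated to muscle averaged 88.0, and none of these levels was above it. Start regions were held by 3 of 6 unrelated, 3 of 5 satellite cell, 5 of 6 endothelial and 3 of 6 macrophage genes. Genes without a start region do not enter these means, so 88.0 is not a floor for closed genes. Fibro-adipogenic markers averaged 136 and Schwann cell markers 206. Arntl, the table's name for Bmal1, had a summed signal over 82 regions of 2688, 2248, 2557 and 1942 in Vehicle and 3023, 3421, 3154 and 3315 in iMSBmal1KO. Which of its regions lies in the floxed part is not given in the sources used here, so this sum does not check the deletion.

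In Vehicle muscle the median lncRNA promoter region had a signal of 65.4 per kb of region, against 89.3 for the 54582 promoter regions of protein-coding genes. The upper 5% of lncRNA regions exceeded 603 per kb. On the scale of log2(signal per kb + 1), the median of lncRNA regions lay below that of coding regions in all 8 libraries. The difference was -0.48 ± 0.018 over the 4 Vehicle libraries and -0.46 ± 0.044 over the 4 of iMSBmal1KO (± SD). It was larger where the region spanned the annotated start itself, with medians of 122 per kb over 1092 lncRNA regions and 366 per kb over 12076 coding regions. That difference was -1.52 ± 0.20 in Vehicle, ranging from -1.72 to -1.28, and -1.69 ± 0.094 in iMSBmal1KO, ranging from -1.81 to -1.61, so the groups overlapped.

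**Figure D1:**
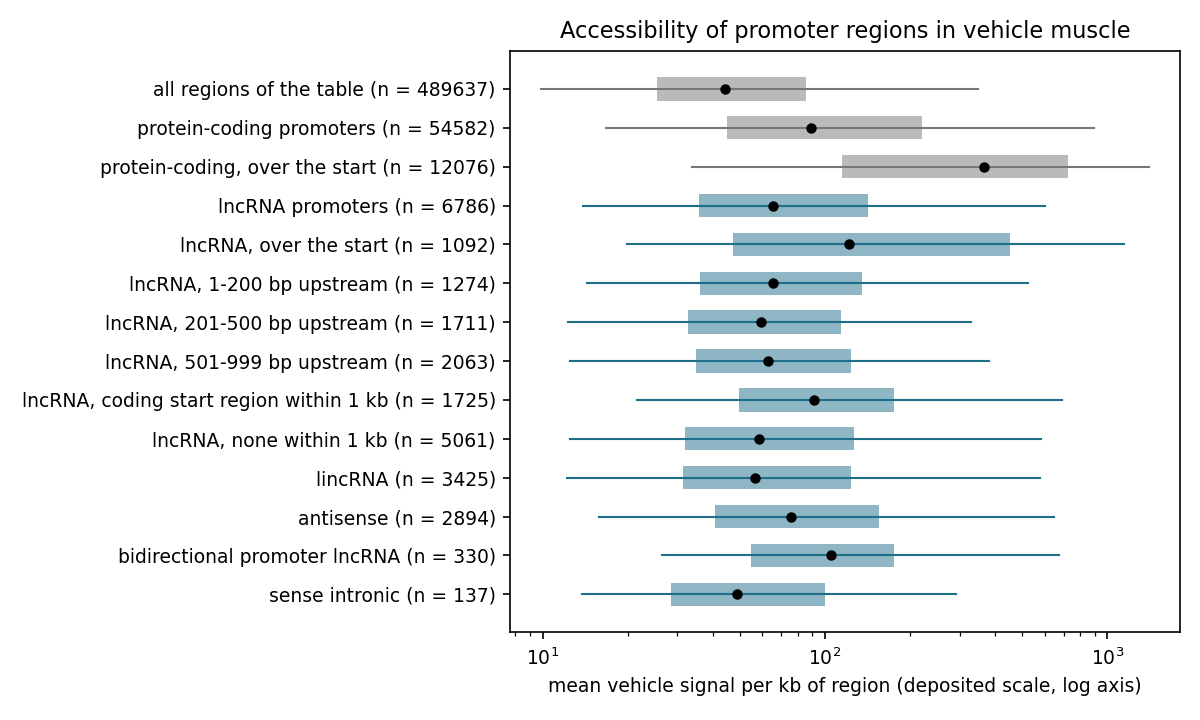
Mean Vehicle signal per kb of region on a log axis for the sets named on the left, with the number of regions. Points are medians over regions, boxes quartiles and lines the 5th to 95th percentile; lncRNA regions over the start, at a median of 122 per kb, lie between other lncRNA regions and coding regions over the start, at 366.

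**Figure D2:**
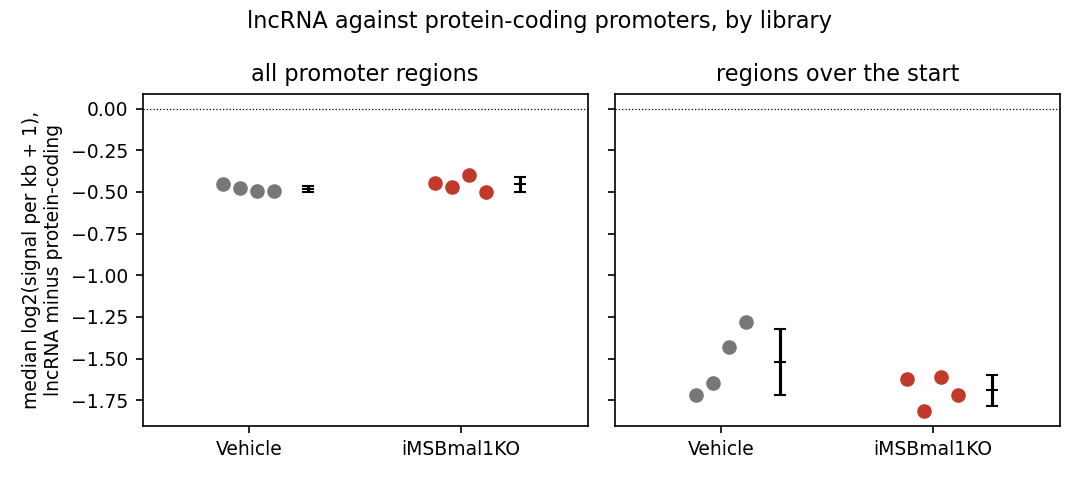
Median log2(signal per kb + 1) of lncRNA regions minus that of protein-coding regions, 1 point per library, for all promoter regions and for regions over the start. Bars give mean and SD over 4 libraries; every library lies below 0, and the groups overlap in both panels.

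Regions off the start were less open than those over it. There, the 3 bands of upstream distance shown in the plot of levels had medians of 65.4, 59.3 and 62.8 per kb from the nearest to the farthest. Regions downstream of the start had 58.1 per kb. The boundaries also matter for counting, since 44.7% of the lncRNA regions abutted another region and 1 gene had up to 14 of them, so neighbouring regions are not independent measurements. A single region was all that 904 genes had.

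A coding promoter nearby went with a higher level. The 1725 lncRNA regions within 1 kb of a protein-coding start region had a median of 91.4 per kb, and the 5061 others 58.5. On the log2 scale the regions near a coding start did not differ from coding promoters beyond the spread between libraries (0.00 ± 0.050 in Vehicle, SD, n = 4), whereas the others differed from coding promoters by -0.63 ± 0.043. Bidirectional promoter RNAs, which by definition sit next to a coding gene, had the highest median of the classes, 105 per kb. Antisense RNAs followed with 75.6, lincRNAs with 56.4 and sense intronic RNAs with 48.8. Per library, the medians of log2(signal per kb + 1) were 6.67 ± 0.12, 6.22 ± 0.099, 5.84 ± 0.043 and 5.68 ± 0.051 in that order (SD over 4 Vehicle libraries). Each step was larger than the spread of either class median between libraries. Single regions of the classes overlapped widely. Their quartiles were 54.6 to 176, 40.6 to 155, 31.5 to 123 and 28.4 to 99.7 per kb in the same order. Level did not go together in the pairs that could be compared. Each pair held the strongest tested lncRNA region of a gene and the nearest coding start region. The latter need not be the strongest of its gene. Over 296 lncRNA genes with a tested region and a tested coding start region within 1 kb, the Vehicle levels per kb had a Pearson r of -0.0023 across pairs, given as a description because the pairs share libraries. The lncRNA side was the more open one in 98 of the 296.

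CpG content went with the level. For each window, only the overlapping region with the highest mean Vehicle signal was used. For lncRNA genes, these regions had a median of 65.4 per kb at windows with 0 to 2 CpG and 83.9 at 3 to 9 CpG. The medians were 180 at 10 to 19 CpG and 450 at 20 or more CpG. The same bins gave 89.9, 142, 435 and 590 per kb for coding genes. Within each bin the lncRNA median was thus below the coding median, by a smaller factor in the bin of 20 or more than in the bin of 10 to 19. Members of 1 bin share only their base composition, and no test was made.

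**Figure D3:**
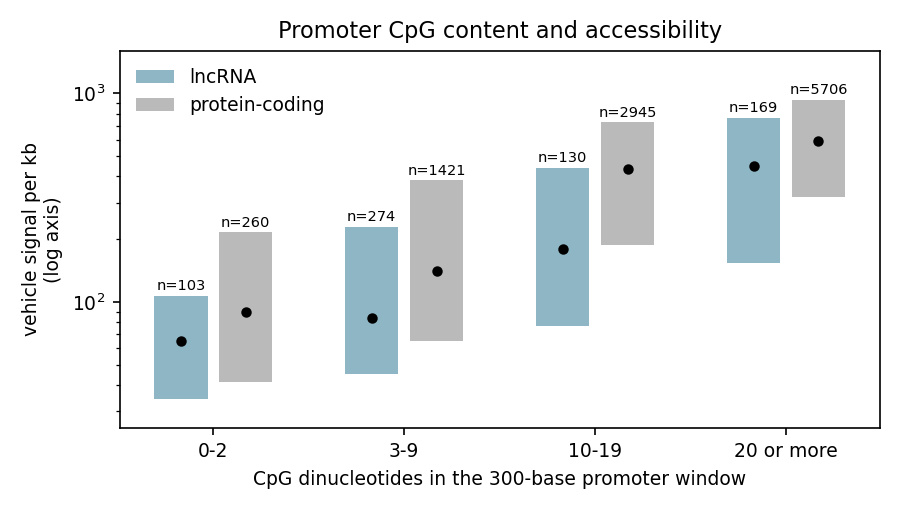
Vehicle signal per kb (log axis) of the strongest promoter region overlapping each 300-base window, by the number of CpG dinucleotides in the window, for lncRNA and protein-coding genes. Points are medians, boxes quartiles and n the number of windows; medians rise from 65.4 to 450 per kb for lncRNA and from 89.9 to 590 for coding genes.

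The sequence CACGTG, which reads the same on both strands and was searched with no other motif, was found in 57 of the 676 windows over lncRNA regions (8.43%). The share was 7.15% over all 32851 RefSeq windows, 5.89% over those of RefSeq lncRNA genes and 10.1% over the coding windows that overlapped a promoter region. Each window was again represented by its strongest overlapping region. Among lncRNA windows where that region was tested, the median log2 change in iMSBmal1KO was 0.19 for the 37 with the motif. It was 0.17 for the 400 without, and 0 of these regions were past the threshold in either set. In the 9330104G04Rik window the motif lies upstream of the start. Its region had 1404, 1325, 1070 and 860 in Vehicle and 1236, 1329, 910 and 1099 in iMSBmal1KO, so the groups overlapped, and the estimate was -0.02 ± 0.19 on the log2 scale (SE, limma adjusted p = 0.985).

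A small number of genes held much of the signal. The 100 genes with the highest mean Vehicle signal, summed over their promoter regions, took 34.4% to 39.0% of all lncRNA promoter signal in a library. In Vehicle 119 regions of 115 genes exceeded 1000 per kb, 37 of them with a coding start region within 1 kb. The 10 genes with the highest level per kb were Gm20753, Neat1, 9330104G04Rik, 4932412D23Rik, Gm36201, Snhg10, 1700041I07Rik, Gm15179, 1700096K18Rik and 5430402O13Rik, from 2532 down to 1968 per kb. Gm20753, 36 bp from a start region of Phlpp1, a phosphatase gene, had a signal of 1959, 1920, 1517 and 1298 in Vehicle and 1662, 1807, 1446 and 1720 in iMSBmal1KO. Means were 1673 ± 321 and 1659 ± 154 (SD, n = 4 each), and the groups overlapped. 4932412D23Rik lay 129 bp from a start region of Zbtb20, a zinc-finger repressor gene, and had 2361 ± 481 in Vehicle and 2125 ± 240 in iMSBmal1KO. 5430402O13Rik lay 12 bp from one of Cycs, which encodes cytochrome c, with 1557 ± 350 and 1545 ± 97.5. The other 7 genes lay 223 bp or farther from the nearest coding start region. Of these 10 regions 0 passed the threshold, with log2 changes from -0.30 (Snhg10) to 0.18 (Gm36201).

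The nuclear RNAs had a median of 211 per kb over 13 regions of 4 genes, and 2 of the genes had regions above 1000 per kb. Neat1, which builds paraspeckles, had a region 279 bp upstream of its start (chr19:5845539-5845931) with 1210, 1040, 851 and 785 in Vehicle and 1027, 1188, 849 and 943 in iMSBmal1KO. Malat1, a nuclear speckle RNA, had its strongest region 595 bp upstream with 997, 1274, 705 and 575 in Vehicle and 1180, 1271, 858 and 1061 in iMSBmal1KO. Groups overlapped at both, at levels of 2478 and 1208 per kb. The list of nuclear RNAs had 4 genes with a promoter region, and 0 of its 8 tested regions were past the threshold, with a median log2 change of 0.20 against 0.12 over all tested regions.

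Imprinted RNAs, read from 1 parental allele, had a median of 138 per kb over 16 regions of 5 genes. Kcnq1ot1, which silences its domain on the paternal chromosome, had 372 ± 39.1 in Vehicle and 327 ± 40.4 in iMSBmal1KO at its start. Airn, the antisense RNA of Igf2r, had 278 ± 72.5 and 302 ± 19.9, Peg13 had 162 ± 26.1 and 201.1 ± 42.8, and B830012L14Rik, in the Dlk1-Dio3 domain, had 468 ± 101 and 489 ± 33.4. Of 9 tested regions in 5 genes, 0 passed the threshold (median log2 change 0.09).

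RNAs that host small nucleolar RNAs had a median of 135 per kb over 25 regions of 8 genes. Snhg10 had 1437, 1119, 1253 and 1226 in Vehicle and 1168, 1217, 747 and 1010 in iMSBmal1KO, or 1258 ± 132 and 1035 ± 212. Its log2 change was -0.30 ± 0.18 (SE, limma adjusted p = 0.598), and the groups overlapped. Snhg16 had 678 ± 120 and 721 ± 63.0, Snhg15 449 ± 84.8 and 518 ± 61.6, and Snhg6 287 ± 58.0 and 346 ± 56.8. Of 11 tested regions in 6 genes, 0 passed the threshold (median log2 change 0.28, against 0.12 over all tested regions).

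Hosts of microRNAs had a median of 81.8 per kb over 14 regions of 4 genes. Mir17hg, the host of the Mir17 cluster, had 102 ± 17.3 in Vehicle and 130 ± 29.98 in iMSBmal1KO. Mir670hg had 35.2, 72.9, 31.1 and 15.6 in Vehicle and 92.2, 95.3, 42.9 and 47.7 in iMSBmal1KO, so the groups overlapped. Its log2 change was 0.94 ± 0.40 (SE, limma adjusted p = 0.519). Mir155hg, known from activated immune cells, had 31.0 ± 20.2 and 39.0 ± 5.11, and Mir124a-1hg, host of a neuronal microRNA, had 6.64 ± 3.32 and 2.42 ± 3.55 and did not pass the filter on low signal. Of 5 tested regions in 3 genes, 0 passed the threshold. Their median log2 change was 0.90, against 0.12 over all tested regions. That median rests on few regions, some of them of the same gene, and was not tested.

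The RNAs known from muscle had a median of 198 per kb over 18 regions of 5 genes, beside 65.4 for all lncRNA promoter regions. Malat1 belongs to this list and to the nuclear list, whose median was 211 per kb, and is described above. The strongest regions of 2310065F04Rik, Myhas and Dubr follow. 2310065F04Rik, which RefSeq lists as linc-Myh, lies with the fast myosin genes on chromosome 11. Its region 664 bp upstream of the start had 1178, 846, 854 and 791 in Vehicle and 838, 875, 747 and 989 in iMSBmal1KO, and the groups overlapped. Myhas had 676, 574, 354 and 303 in Vehicle and 494, 586, 426 and 546 in iMSBmal1KO at a region 361 bp from a start region of Myh4, the gene of the fastest myosin, and again the groups overlapped. Per kb these regions were at 1872 and 1220 in Vehicle. Dubr, known from myoblast differentiation, was weaker, at 427 per kb, and had 219 ± 45.3 and 252 ± 25.6. Of 14 tested regions in 5 genes of this list, 0 passed the threshold (median log2 change 0.07).

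RNAs of the Hox clusters had a median of 44.7 per kb over 11 regions, and 4 regions of 2 genes could be tested. Hoxd3os1 had 73.2 ± 13.4 in Vehicle and 87.2 ± 13.1 in iMSBmal1KO, and Hottip, at the far end of the Hoxa cluster, 26.1 ± 11.1 and 25.1 ± 9.21. Haglr and Hotairm1 did not pass the filter. None of the 4 tested regions passed the threshold by limma, and 0 had an unadjusted p under 0.05. So few regions cannot be set against the shares over all tested regions, 6.59% higher and 2.63% lower. At that unadjusted p, the microRNA host list had 2 of 5 tested regions higher. Small nucleolar RNA hosts had 1 of 11 higher and 1 lower, and imprinted RNAs 0 of 9. The nuclear list had 1 of 8 higher and the muscle list 1 of 14, in both the same Malat1 region.

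In the list of growth-related RNAs, 0 of 22 tested regions in 7 genes passed the threshold, and 5 had an unadjusted p under 0.05 with a higher estimate, where the share over all tested regions was 6.59%. Those 5 are not independent, since they come from 3 genes, with 2 abutting regions of Pvt1 and 2 nearby regions of Oip5os1. Lncpint, a p53-responsive RNA, had 442 ± 65.8 in Vehicle and 377 ± 77.5 in iMSBmal1KO. Trp53cor1, which lies near Cdkn1a, had 361 ± 106 and 418 ± 71.5. Oip5os1 had 228, 289, 213 and 125 in Vehicle and 319, 413, 329 and 295 in iMSBmal1KO, so that every iMSBmal1KO library lay above every Vehicle library. Its log2 change of 0.71 ± 0.23 (SE) had a limma adjusted p of 0.424. Values were therefore separated by group at Oip5os1 without the change being past the threshold over the whole table.

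Between groups, 0 of the 2494 tested lncRNA promoter regions were higher in iMSBmal1KO and 2 were lower at a limma adjusted p under 0.05, where p-values were adjusted over all 124901 tested regions. The background was 0.0312% higher and 0.0568% lower over all tested regions, 0.0881% in all, against 0.0802% lower for lncRNA promoters, a share that rests on 2 regions. At an unadjusted p under 0.05, 130 were higher (5.21%) and 56 lower (2.25%), against 6.59% and 2.63% of all tested regions. Every Vehicle value lay below every iMSBmal1KO value in 78 (3.13%, background 3.62%) and above in 40 (1.6%, background 1.87%). These 4 shares lay near the background and show nothing particular to lncRNA promoters. The tested regions were 36.8% of the lncRNA promoter regions, from 1508 genes, and a region with low values in 1 group can have passed only through the other. Limma-voom put 2 regions higher and 5 lower past the threshold, a lower share of 0.2% against 0.135% of all tested regions, of which it called 272. Without Vehicle library 4 the counts were 1 and 6, a lower share of 0.219% against 0.153% of all tested regions, of which 326 were called.

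The median log2 change of tested lncRNA promoter regions was 0.14, between 0.12 for all tested regions and 0.18 for coding promoters. This offset moved with the scaling of the libraries. With factors from total reads the median over all tested regions was 0.0013 and over lncRNA promoters 0.021, and with an abundance-dependent loess scaling they were 0.0094 and 0.020. Without Vehicle library 4 they were 0.036 and 0.041. The lncRNA median exceeded that of all tested regions by at most 0.0503 under the alternative settings run, the largest gap being with no filter. Over the 296 pairs of a lncRNA region and a coding start region within 1 kb, the log2 changes had a Pearson r of 0.19, a description across pairs that share libraries.

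**Figure D4:**
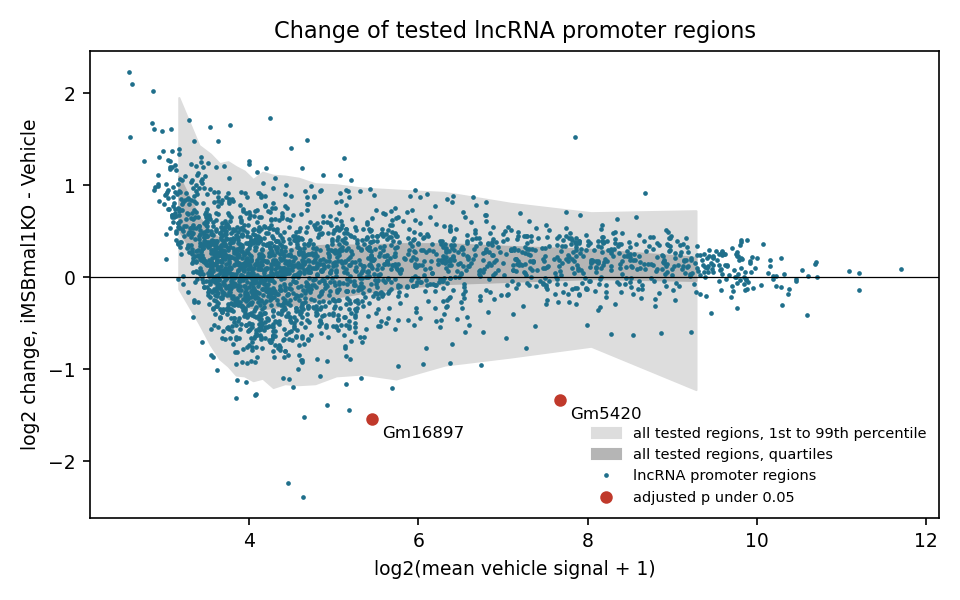
Fitted log2 change in iMSBmal1KO against log2(mean Vehicle signal + 1) for the 2494 tested lncRNA promoter regions (points), with the quartiles and the 1st to 99th percentile of all 124901 tested regions in 20 bins of Vehicle signal (grey). The 2 regions past the threshold, of Gm5420 and Gm16897, lie below 0; at the lowest Vehicle signal the filter leaves mainly regions with positive estimates.

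The region with the smallest adjusted p was that of Gm5420, a lincRNA of unknown function on chromosome 10 (chr10:21686089-21686348), 63 bp upstream of its start. Its signal was 206, 241, 183 and 181 in Vehicle and 67.6, 67.7, 81.1 and 107 in iMSBmal1KO. All 4 Vehicle libraries lay above all 4 iMSBmal1KO libraries, and the values rest on 58 to 288 reads per Vehicle library against 68 to 158 per library of the other group. Means were 203 ± 28 and 80.8 ± 18.4 (SD, n = 4 each), so the level was 2.51-fold lower (log2 change -1.33 ± 0.22, SE, limma adjusted p = 0.0154). The abutting upstream region had 38.5, 37.0, 38.8 and 43.8 in Vehicle and 17.98, 23.4, 21.5 and 35.1 in iMSBmal1KO (limma adjusted p = 0.499). Another region of the gene, 716 bp upstream, went from 18.8 to 11.3 (limma adjusted p = 0.562). Neither of these passed the threshold, although both had negative estimates. The Gm5420 region missed the threshold when Vehicle library 1 (limma adjusted p = 0.0724), Vehicle library 3 (0.0585), iMSBmal1KO library 2 (0.0876) or iMSBmal1KO library 3 (0.0710) was left out, and passed in the other 14 of 18 alternatives. Its log2 change ran from -1.50 to -1.25 over these. The nearest coding start region, of Sgk1, lay 305100 bp away.

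The other region that fell belonged to Gm16897, an antisense RNA on chromosome 1 (chr1:194977548-194977614), 587 bp upstream of its start. Its signal was 46.9, 48.3, 44.5 and 31.3 in Vehicle and 13.3, 10.0, 16.7 and 16.3 in iMSBmal1KO. The groups did not overlap, and the values rest on 10 to 70 reads per Vehicle library against 12 to 31. Means were 42.7 ± 7.81 and 14.1 ± 3.10 (SD, n = 4 each), or 3.04-fold lower (log2 change -1.54 ± 0.30, SE, limma adjusted p = 0.0478). All 4 tested promoter regions of Gm16897 had negative estimates. The region starting at 194977660 had 14.9, 31.9, 24.1 and 25.01 in Vehicle and 2.57, 5.02, 1.19 and 8.78 in iMSBmal1KO, also with groups apart (limma adjusted p = 0.0804). That starting at 194977251 had 36.2, 38.0, 38.1 and 43.8 in Vehicle and 17.98, 21.7, 17.9 and 13.8 in iMSBmal1KO (limma adjusted p = 0.214), again with groups apart. These regions lie in a row over less than 1 kb and are not independent of each other. The stretch next to them behaved differently. The region over the start of A330023F24Rik, the host of Mir29b-2 and Mir29c on the opposite strand (chr1:194976171-194977021), had 943, 889, 602 and 578 in Vehicle and 770, 904, 788 and 897 in iMSBmal1KO, and its groups overlapped (log2 change 0.19 ± 0.19, SE, limma adjusted p = 0.750). The Gm16897 call passed in 7 of 18 alternatives. It was lost with median-of-ratios factors (limma adjusted p = 0.0660), at a minimum count of 30 (0.0762) and narrowly at a pseudocount of 0.5 (0.05002). It was also lost without any single library except Vehicle library 4, with limma adjusted p from 0.0723 without iMSBmal1KO library 1 to 0.232 without iMSBmal1KO library 2. Without Vehicle library 1 it was 0.199, without Vehicle library 2 0.0876, without Vehicle library 3 0.206, without iMSBmal1KO library 3 0.112 and without iMSBmal1KO library 4 0.103.

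Regions with a lower estimate whose groups did not overlap but which missed the threshold are given by their values. Gm49417, an antisense RNA at Sorbs3, had 37.3, 24.7, 47.7 and 31.3 in Vehicle and 12.8, 11.7, 15.5 and 8.78 in iMSBmal1KO 894 bp upstream of its start (log2 change -1.44 ± 0.32, SE, limma adjusted p = 0.106). Sorbs3 encodes vinexin, an adaptor of cell adhesions, and its start region at chr14:70208301-70208526 fell from 386 to 114 (limma adjusted p = 0.00172). A start region of Sorbs3 231 bp from the Gm49417 region went from 525 to 263 (limma adjusted p = 0.0508), and outside its promoter 2 regions of Gm49417 itself fell, from 109 to 30.6 (limma adjusted p = 0.0416) and from 67.2 to 23.3 (0.0327). The lncRNA promoter region thus lay in a stretch with several regions past the threshold. A530013C23Rik had 173, 176, 151 and 116 in Vehicle and 82.2, 97.8, 79.9 and 97.4 in iMSBmal1KO over its start, 221 bp from a start region of Tmem189 (limma adjusted p = 0.310). Gm47843 had 65.4 ± 5.05 in Vehicle and 33.8 ± 5.96 in iMSBmal1KO (limma adjusted p = 0.240). Gm38843, Gm47863, Gm17163, Gm38405 and Gm10032 completed the list, with limma adjusted p from 0.134 to 0.242 and log2 changes from -2.23 to -1.16. Gm10032 had the largest estimate of these on 1 to 18 reads in an iMSBmal1KO library, the fewest.

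Among regions with a higher estimate, Gm15564, an antisense RNA on chromosome 16, had the smallest p. Its region 580 bp upstream of the start (chr16:35981662-35981967) had 420, 501.4, 451 and 256 in Vehicle and 806, 706, 794 and 695 in iMSBmal1KO. Every iMSBmal1KO library lay above every Vehicle library, and means were 407 ± 106 and 750 ± 58.1 (SD, n = 4 each). Its log2 change was 0.92 ± 0.20 (SE) with a limma adjusted p of 0.116, past the threshold under loess scaling, with no filter, with limma-voom and without Vehicle library 4. Kpna1, an importin gene 1064 bp away, had a start region at chr16:35983031-35983471 with 345 in Vehicle and 383 in iMSBmal1KO (limma adjusted p = 0.873).

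Pvt1 had promoter regions at several annotated starts. The region over an alternative start (chr15:62098975-62099067) had 30.9, 26.7, 27.3 and 28.1 in Vehicle and 71.5, 54.4, 54.6 and 69.9 in iMSBmal1KO, with groups apart (log2 change 1.11 ± 0.25, SE, limma adjusted p = 0.122). The region abutting it on the downstream side went from 25.5 to 49.7 (limma adjusted p = 0.401). The region over the upstream start (chr15:62037766-62038077) had 88.5, 75, 81.3 and 93.8 in Vehicle and 104, 107, 81.1 and 95.3 in iMSBmal1KO, where the groups overlapped (limma adjusted p = 0.783). The difference between the starts was not tested. None of the 5 tested Pvt1 regions passed the threshold by limma, and 1 passed with limma-voom, at an adjusted p of 0.0486.

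Taco1os had 265, 411, 147 and 96.9 in Vehicle and 456, 499, 774 and 607 in iMSBmal1KO at a region 465 bp upstream of its start (chr11:106066771-106066974). Groups did not overlap, but the Vehicle libraries spread over a wide range, and the log2 change of 1.52 ± 0.39 (SE) had a limma adjusted p of 0.324. Without Vehicle library 2 it was 0.0133. Taco1, the neighbouring gene of a mitochondrial translation activator, had 320 in Vehicle and 341 in iMSBmal1KO over its start, 375 bp away (limma adjusted p = 0.871). Gm12925, 6 bp from a start region of the cytoskeletal linker gene Macf1, had 32.7 ± 10.7 and 70.3 ± 15.9 (limma adjusted p = 0.227). Gm17251, a bidirectional promoter RNA 42 bp from Rab11b, had 33.9 ± 16.8 and 80.4 ± 30.8 (limma adjusted p = 0.249). Gm49891, 1700027J07Rik, Gm48075, Gm30978 and Gm47708, all lincRNAs, had log2 changes of 0.82 to 0.89 and limma adjusted p of 0.240 to 0.367.

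**Figure D5:**
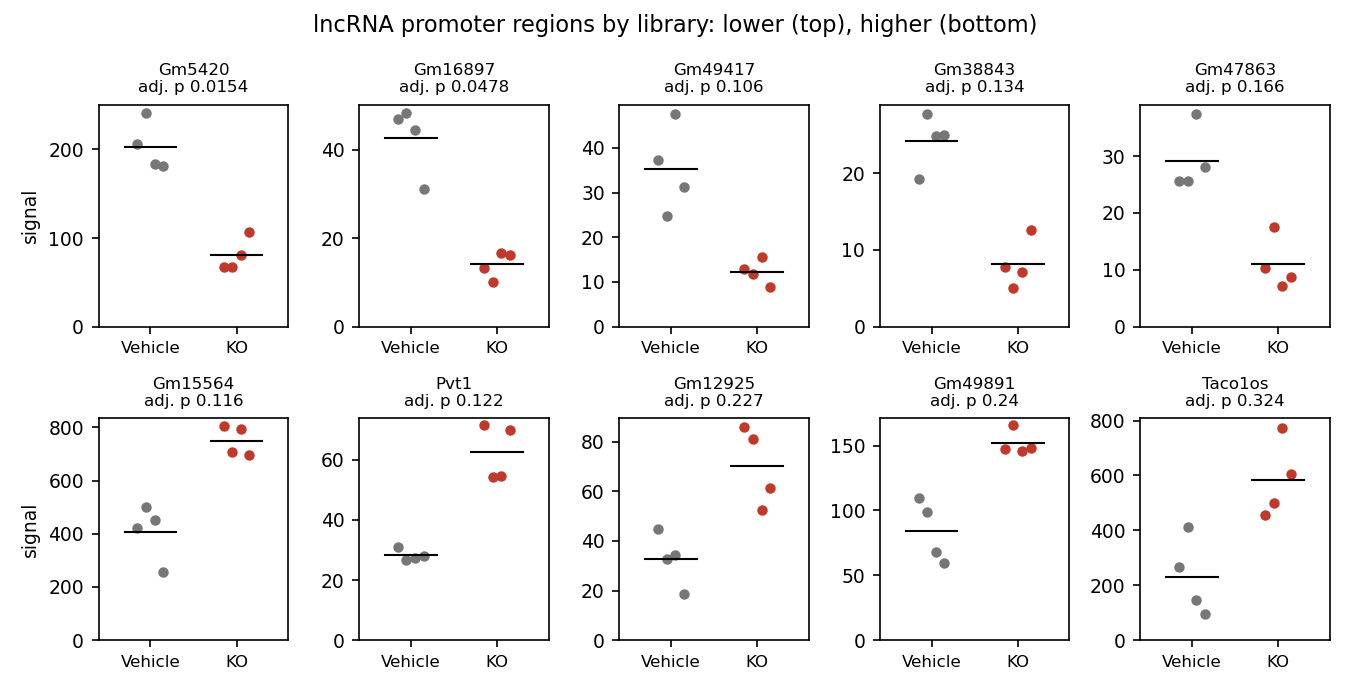
Signal per library (points; vertical axes start at 0) and group mean (line) at 10 lncRNA promoter regions whose groups did not overlap, with the limma adjusted p over all tested regions; KO stands for iMSBmal1KO. The top row shows lower and the bottom row higher regions; those of Gm5420 and Gm16897 are past the threshold of 0.05 and the other 8 are not.

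Promoters that lie within 1 kb of a start region of a clock gene were 3. Gm7467, antisense to Clock, had 65.0, 76.0, 66.7 and 28.1 in Vehicle and 108, 109, 100 and 95.3 in iMSBmal1KO, with groups apart (log2 change 0.88 ± 0.28, SE, limma adjusted p = 0.391). Clock itself, which encodes the partner of BMAL1, had 177 ± 56.9 and 260 ± 61.4 at its strongest start region (log2 change 0.59 ± 0.26, SE, limma adjusted p = 0.516). Gm17597, at Tef, a clock output factor of the PAR bZIP family, had 12.5 ± 4.51 and 8.49 ± 3.75. The Tef start region with the highest level had 3099 ± 607 and 2730 ± 279 (limma adjusted p = 0.744). It lies more than 1 kb from the Gm17597 region and is not the start region that made them neighbours. 0610040F04Rik, at the clock repressor gene Bhlhe40, had 74.7 ± 10.7 and 72.5 ± 15.3. The strongest Bhlhe40 start region, also more than 1 kb from that region, had 1157 ± 260 and 1103 ± 108. None of these clock neighbours passed the threshold by limma. From the list of muscle output genes, 1 was a neighbour, Tead1, whose bidirectional RNA 2310014F06Rik had 6.67 ± 7.85 and 7.18 ± 10.2 and did not pass the filter on low signal.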

How the data were processed

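ATAC-seq of mouse gastrocnemius gave 8 libraries, 4 Vehicle and 4 iMSBmal1KO. The submitters' processing notes name Partek, Bowtie2, MACS2 and DESeq2, and the builds mm10 and GRCm39, with no versions or order. Removal of duplicates and the shift of reads for the transposase are not given in the sources used here, and either would move every value. The authors deposited 1 table with a signal per region and library, which is not whole: 98.3% to 99.8% of the values above 0 were whole multiples of 1 step per library (tolerance 0.02 reads), so it was read as scaled read counts, with read equivalents in units of that step. The scale of each library lay close to a median-of-ratios factor, with ratios of 0.963 to 1.015, so that alternative scaling is near the deposited one. Coordinates are given as the table lists them, with no build named there. Of genes matched in RefSeq, 99.7% overlapped the GRCm38.p6 gene.

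A test for counts had been planned. Because the values were scaled, the planned fallback was used, the limma-trend test with robust empirical Bayes (limma 3.58.1, R 4.3.3) on log2 of signal + 1, group as the only term, all 8 libraries, Benjamini-Hochberg over all 124901 regions that had at least 0.762 read equivalents per M in 4 libraries and 15 reads in total, threshold 0.05. Log2 changes on this scale understate those of low regions. Levels were divided by region length. Tables and figures used Python 3.11.15, pandas 2.3.3 and matplotlib 3.10.9. The fit was tested on simulated data.

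The members, lists and tests were chosen with earlier results of these data known. Named were regions past the threshold or, up to 10 per direction and 1 per gene, those of smallest p with groups apart; the 10 genes of highest Vehicle level per kb; up to 4 per list of nuclear, imprinted, small nucleolar and microRNA host, muscle, Hox and growth RNAs; and neighbours within 1 kb of clock and muscle output genes. Regions beside these were named after their values were seen. Alternatives were other scalings, filters, pseudocounts and tools, the replicate number as a block and leaving out each library. Same-numbered libraries had correlations of their deviations of -0.064, 0.14, 0.023 and 0.025, so the numbers were not taken as pairs.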

Additional observations from a re-analysis of the deposited data

Results flagged for a closer look

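Of 116 sets of 4 values checked for a library far from its group, 8 stood out, where chance gives about 1 in 20, or 5.8. In iMSBmal1KO, Gm49891 had 166 in library 2 against 146 to 148 in the others. Gm17251 had 126 in library 1 against 60.2 to 69.2. Gm36201 had 828 in library 1 against 1159 to 1169. 5430402O13Rik had 1400 in library 3 against 1581 to 1611. Mir155hg had 31.4 in library 4 against 41.1 to 41.8. In Vehicle, 2310065F04Rik had 1178 in library 1 against 791 to 854. Hotairm1 had 12.5 in library 4, the shallowest, against 3.08 to 4.45, and Trp53cor1 had 203 there against 402 to 434. Hotairm1 did not pass the filter on low signal, and the other 7 regions were not past the threshold in the limma test.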

How the results depend on the processing

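Counts of lncRNA promoter regions past the threshold, 0 higher and 2 lower, moved with most settings. The lower count was 1 with median-of-ratios factors, 4 with total reads, 9 with loess scaling (1 higher), 4 with no filter (1 higher), 1 at a minimum count of 30, 1 at a pseudocount of 0.5, 5 with limma-voom (2 higher) and 0 at a threshold of 0.01. Calls over the whole table moved as well, from 110 to 82 with median-of-ratios factors, 223 with total reads, 342 with loess scaling and 195 with no filter. Of all tested regions 0.0416%, 0.134%, 0.202% and 0.0217% were then lower, against 0.0401%, 0.16%, 0.361% and 0.0589% of lncRNA promoters. At a minimum count of 30, a pseudocount of 0.5 and with limma-voom, the whole table had 143, 106 and 272 calls. The lower shares were 0.191%, 0.0544% and 0.135%, against 0.093%, 0.0401% and 0.2% of lncRNA promoters. Leaving out each library gave 0 to 6 lower and 0 to 1 higher. The lower count was 0 without Vehicle library 1, Vehicle library 3, iMSBmal1KO library 2 or iMSBmal1KO library 3, and 6 without Vehicle library 4. In the settings with 0 lower, calls over the whole table also fell, to 34, 41, 46 and 40 in that order. There 0.0129%, 0.0184%, 0.027% and 0.0211% of all tested regions were lower. Without Vehicle library 4 the share was 0.153%, with 326 calls. Fitting the replicate number as a block gave 1 lower, that of Gm5420, with Gm16897 at a limma adjusted p of 0.0815, and 100 regions of the whole table against 110; these numbers did not pair the libraries. The difference in level between lncRNA and coding promoters in Vehicle kept its sign, at -0.34 over tested regions only, -0.46 at a pseudocount of 5, -0.63 without regions near a coding start and -0.40 per region instead of per length. The median log2 change, 0.14, ran from 0.020 with loess scaling to 0.19 without Vehicle library 2. Each move was smaller than the spread between libraries of 0.16, but that spread exceeded the median itself. Of the single regions named, 0 changed sign past the threshold. The cause of these moves was not tested. Depth limits weak promoters most, with a median of 2 reads per lncRNA region in Vehicle library 4.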
